A study of Mus musculus with 6 samples.

Results

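The genes described here encode the nuclear subunits of the mitochondrial respiratory chain and the ATP synthase. They were chosen by symbol: those that begin with Nduf and a, b, c, s or v, with Uqcr, with Cox and a digit from 4 to 8, or with Atp5, and the genes Sdha to Sdhd. This gave 92 of the 24421 genes listed: 38 of complex I, 7 assembly factors of complex I (the Ndufaf genes), 4 of complex II, 8 of complex III, 18 of complex IV and 17 of complex V. Of the 92 genes, 89 passed edgeR's expression filter and were tested among 14180 genes. The other 3, Ndufs5, Cox8c and Cox7b2, are listed at 0 counts in every library.

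Bulk RNA-Seq was performed on gastrocnemius and plantaris (GP) muscle of mice aged 5 months that the study's methods give as male. The labels give the strain background as B6C3F1, and by the methods the edited founders were bred to C57BL/6N and the floxed line to a Cre line, so it may be mixed. Net39, the gene studied, encodes a nuclear envelope protein of muscle. There are 3 mice labelled Ctrl (Net39 fl/fl without Cre) and 3 labelled cKO (Net39 fl/fl with HSA-CreERT2), and each library is from 1 mouse. Both groups carry the floxed alleles and received tamoxifen 3 months before the muscle was taken, and the HSA promoter limits the inducible Cre to muscle fibres, so satellite cells and other cells of the tissue keep the gene. Net39 goes against these labels. It is listed as Ppapdc3, at 310, 321 and 217 raw counts in mice 1, 2 and 3 labelled Ctrl, against 5365, 4340 and 6080 in mice 1, 2 and 3 labelled cKO. Its log2 fold change, labelled cKO over labelled Ctrl, was 4.22 ± 0.17 (SE), with an adjusted p of 0.000161 in edgeR's quasi-likelihood test. All directions below are therefore those of the labels, and which genotype each group had was not tested.

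The respiratory chain sits in the inner mitochondrial membrane. Complex I oxidises NADH and complex II oxidises succinate, and both pass electrons to ubiquinone. Complex III passes them to cytochrome c and complex IV to oxygen, while complexes I, III and IV pump protons. Complex V, the ATP synthase, uses the proton gradient to make ATP. Slow and type IIa fibres of skeletal muscle are rich in mitochondria, and type IIb fibres are poor in them. Several subunits of complex IV exist as a form made mainly in heart and skeletal muscle and a form made in most tissues.

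Total counts ranged from 33860001 to 38201728 in the Ctrl-labelled libraries and from 39191239 to 48839910 in the cKO-labelled ones. Levels are given as CPM, the counts of a gene relative to a fixed library total, scaled by edgeR's TMM factors, which were 1.08 to 1.11 in the Ctrl-labelled libraries and 0.865 to 0.983 in the cKO-labelled ones. The tissue was muscle by its markers, with 29980 to 40530 CPM of Acta1, the skeletal actin, over the 6 libraries. In bulk muscle, fewer cells of a type and less RNA per cell cannot be told apart. Subunits encoded by mitochondrial DNA were not analysed here.

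Most genes of the chain differed little between the groups. Of the 89 genes tested, 7 (7.87%) were called at an adjusted p under 0.05. Ndufaf5, Ndufaf6, Ndufa12 and Ndufb4 were higher in the cKO-labelled libraries, where 12.6% of all 14180 genes tested were called higher. Cox8a, Cox6a1 and Ndufb3 were higher in the Ctrl-labelled ones, where 11.8% of all genes tested were called higher. The calls were 3 in complex I, 2 in its assembly factors, 2 in complex IV and 0 in complexes II, III and V, in which edgeR gave 2, 0 and 0 genes an unadjusted p under 0.05 and DESeq2 called 2, 0 and 0. These counts depend on single libraries. Calls higher in the cKO-labelled libraries numbered 2 without the library labelled Ctrl 1 or cKO 3, and calls higher in the Ctrl-labelled ones numbered 1 without Ctrl 1, Ctrl 2, cKO 1 or cKO 3 and 9 without Ctrl 3. Of all genes tested, 5.33% (Ctrl 1 left out) and 5.34% (cKO 3 left out) were called higher in the cKO-labelled libraries, against 12.6%. In the 4 fits with 1 Ctrl-higher chain call, 5.46% to 6.57% of all genes were called higher in the Ctrl-labelled libraries, against 11.8%. Fewer calls in such fits were thus not particular to the chain genes. Leaving out Ctrl 3 gave 10.6%. Under total counts, 1 chain gene was called higher in the cKO-labelled libraries and 11 in the Ctrl-labelled ones. The shares of all genes tested were then 4.75% and 28.7%. None of the 89 genes reached the study's rule, which also asks for a fold change over 2. Over all genes tested, that rule was met by 2.13% higher in the cKO-labelled libraries and by 3.92% higher in the Ctrl-labelled ones, and DESeq2 and edgeR gave fold changes below 2 for all 7 genes called.

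The 95% interval of the log2 fold change lay between -1 and 1, that is within a 2-fold difference, for 89 of the 89 genes and for 72.7% of all genes tested. It lay within a 1.5-fold difference for 79 of the 89. The median absolute log2 fold change was 0.13 over the 89 genes and 0.27 over all genes tested. These intervals are not adjusted for the number of genes. The genes compared with are all that passed the filter, not genes of like abundance. The part of abundance in these differences was not tested.

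**Figure D1:**
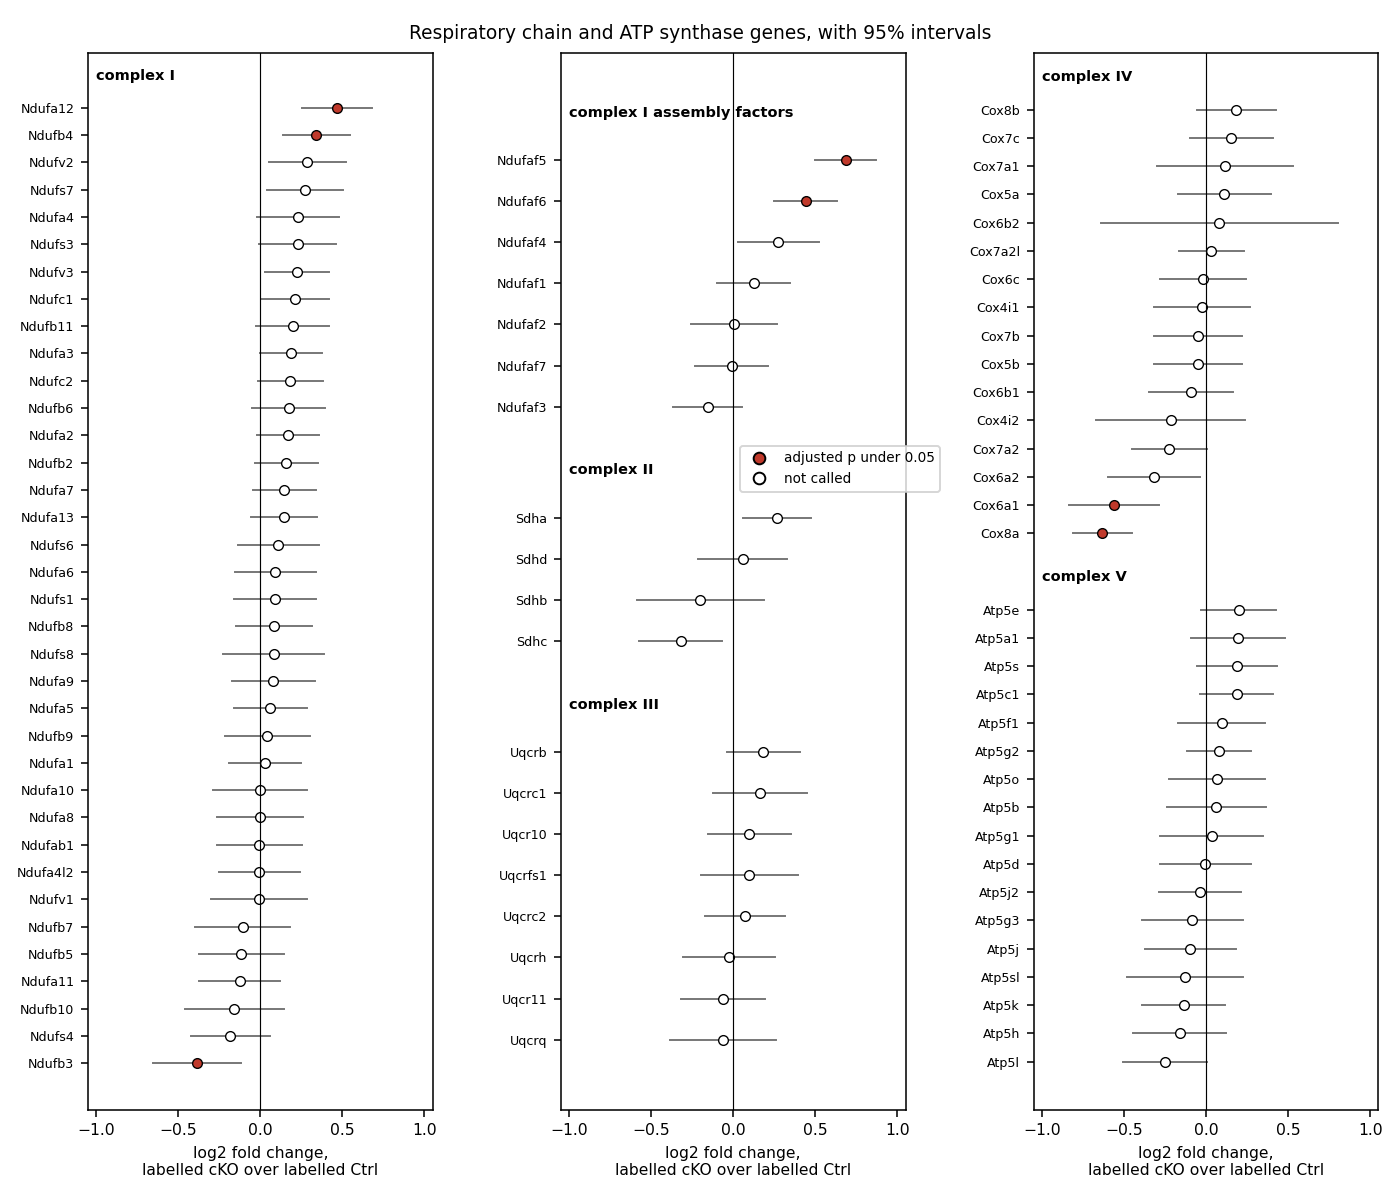
Log2 fold change (labelled cKO over labelled Ctrl, horizontal axis) of the genes tested, in rows by complex and without 1 gene not reported here, with the 95% interval of edgeR's fit as a line. Filled points are the 7 genes with an adjusted p under 0.05, and the values run from -0.63 (Cox8a) to 0.69 (Ndufaf5).

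As a group, the 89 genes showed a median log2 fold change of 0.07 (54 above 0 and 35 below), but under scaling to total counts the median was -0.19 (8 above 0 and 81 below). That scaling moved the median of all genes tested from -0.02 to -0.27. Relative to the median of all genes, the 89 genes stood at 0.08 under TMM and at 0.08 under total counts. The sign rests on 1 library. With the library labelled Ctrl 3 left out, the TMM-scaled median of the 89 genes was -0.02 (-0.01 relative to all genes), with 36 genes above 0 and 53 below, and without the library labelled Ctrl 1 or Ctrl 2 it was 0.10 or 0.12.

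The library labelled Ctrl 3 was the lowest of the 3 labelled Ctrl in 85 of the 89 genes (95.5%), against 35.3% of all genes tested, and the lowest of all 6 in 72. Its level over the 89 genes was 0.818 times the geometric mean of the libraries labelled Ctrl 1 and 2 by the median. The genes of all 5 complexes shared this: the median deviation of the library labelled Ctrl 3 from the mean of the 6 libraries was -0.23 for complex I, -0.22 for complex II, -0.26 for complex III, -0.21 for complex IV and -0.22 for complex V on the log2 scale. In the same library the type IIb myosin Myh4 was at 36560 CPM, against 15350 and 24650 CPM in those labelled Ctrl 1 and 2. The type IIa myosin Myh2 was at 5541 CPM, against 10140 and 9941 CPM. The slow-fibre genes did not set it apart from the library labelled Ctrl 2, with sums of 14640, 8684 and 8510 CPM in mice 1, 2 and 3 labelled Ctrl. Whether the fibre makeup of this sample has a part in its lower chain genes was not tested.

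**Figure D2:**
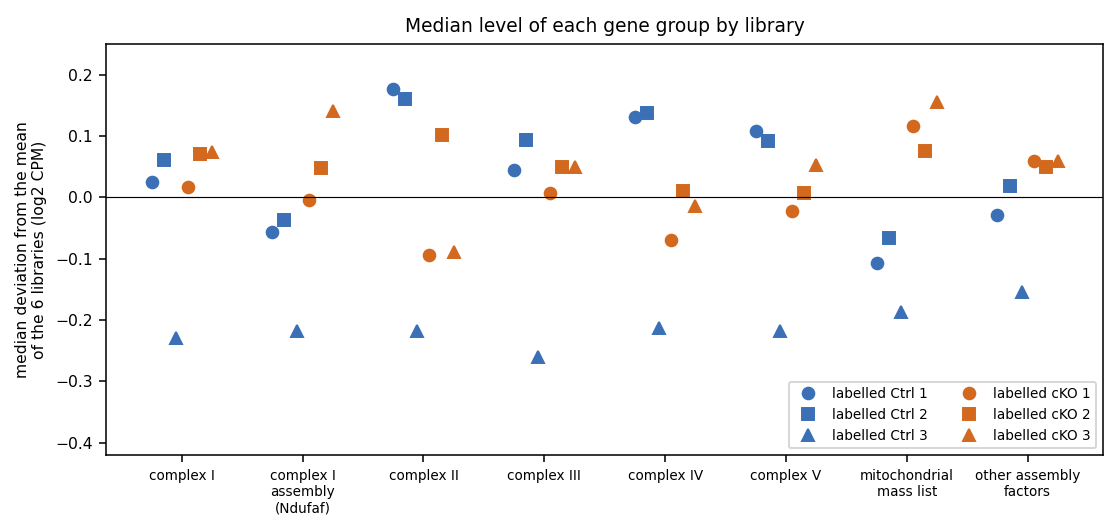
Median deviation from the mean of the 6 libraries (log2 CPM, vertical axis) over the genes of each group, 1 point per library, with colour for the labelled group and shape for the mouse number. The library labelled Ctrl 3 lies lowest in every group shown, at -0.23 for complex I, and the 3 libraries labelled cKO lie within the range of the Ctrl-labelled ones for complexes II to V.

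Fibre-type genes also differed between the labelled groups. Of 9 slow-fibre genes, 3 were called higher in the Ctrl-labelled libraries, and the other 6 had negative log2 fold changes that did not pass. The 9 genes summed to 8510 to 14640 CPM in the Ctrl-labelled libraries and 448 to 3894 CPM in the cKO-labelled ones. Both type IIa and IIx myosins were called lower in the cKO-labelled libraries, with sums of 12930 to 21450 CPM in the Ctrl-labelled ones and 7506 to 9647 CPM in the cKO-labelled ones. All 4 type IIb genes were called higher in the cKO-labelled libraries, summing to 20420 to 48000 CPM in the Ctrl-labelled ones and 76560 to 107700 CPM in the cKO-labelled ones. The 5 leukocyte genes summed to 48.1 to 61.2 CPM in the Ctrl-labelled libraries and 25.2 to 39.2 CPM in the cKO-labelled ones, with 3 called. The part of fibre makeup or leukocytes in the results on the chain was not tested. Summed over the 92 chain genes, the level was 23080 to 28760 CPM in the Ctrl-labelled libraries and 27020 to 28340 CPM in the cKO-labelled ones, and these ranges overlap. The 6 adipocyte genes summed to 16.2 to 46.6 CPM in the Ctrl-labelled libraries and 16.7 to 50.5 CPM in the cKO-labelled ones, which overlap. Of the brown fat genes, Ucp1 was at 0 in 4 of the 6 libraries, and Cidea had 72, 60 and 28 counts against 19, 34 and 9 (log2 fold change -1.33, not called). Their part in the results was not tested.

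Complex I is the largest of the complexes, with a core that binds NADH, carries electrons and pumps protons, and a shell of accessory subunits. Ndufv2 and Ndufs7, iron-sulphur subunits of the core, were higher in every cKO-labelled library but were not called by edgeR. Ndufv2 was at 284, 300.4 and 244 CPM in mice 1, 2 and 3 labelled Ctrl, against 323, 346 and 342 CPM in the cKO-labelled ones (log2 fold change 0.29, adjusted p = 0.0788). Ndufs7 was at 242, 254 and 205 CPM against 277, 284 and 284 CPM (0.27, adjusted p = 0.0874). DESeq2 called both, and under total counts neither was called. Of the 37 complex I genes tested, 27 had a positive log2 fold change, with a median of 0.09, but under total counts the median was -0.16.

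Ndufa12, an accessory subunit of the matrix arm that takes the place of the assembly factor Ndufaf2 late in assembly, was at 97.3, 106 and 93.3 CPM in mice 1, 2 and 3 labelled Ctrl, and at 133, 128 and 149 CPM in those labelled cKO 1, 2 and 3. All libraries labelled cKO were above all labelled Ctrl. Its log2 fold change was 0.47 ± 0.09 (SE), with an adjusted p of 0.0127. The call was kept in 4 of the 6 fits that left out 1 library, and was lost without the library labelled Ctrl 1 (adjusted p = 0.0515) or cKO 3 (0.0553), while under total counts the log2 fold change was 0.21 and was not called (0.11). Ndufaf2 itself was at 9.65 ± 0.10 CPM in the Ctrl-labelled libraries and 9.68 ± 1.13 CPM in the cKO-labelled ones (SD, n = 3), with a log2 fold change of 0.01. Of the exon bases of Ndufaf2, 65.7% overlap another gene, and 22.0% of the 75-base windows of the Ndufa12 transcript are also found in the transcript of Gm15920, so counts of both are less certain.

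Ndufb4 and Ndufb3, accessory subunits of the membrane arm, moved in opposite directions. Ndufb4 was at 73.8, 82.5 and 69.4 CPM in the Ctrl-labelled libraries and at 99.3, 91.7 and 95 CPM in the cKO-labelled ones, in mouse order. The log2 fold change was 0.34 ± 0.09 (SE), with an adjusted p of 0.0291. The groups do not overlap, but 35.2% of the windows of the Ndufb4 transcript are shared with other genes, among them Ndufb4c.

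Ndufb3 was at 134, 139 and 109 CPM in the Ctrl-labelled libraries and at 95.1, 107 and 90.8 CPM in the cKO-labelled ones, in mouse order. Its log2 fold change was -0.38 ± 0.11 (SE), with an adjusted p of 0.0481, and the lowest library labelled Ctrl was close to the highest labelled cKO. Leaving out 1 library at a time ended both calls in 4 of 6 fits. For Ndufb4 the adjusted p was 0.0974 without the library labelled Ctrl 1, 0.0573 without Ctrl 3, 0.107 without cKO 1 and 0.102 without cKO 3, and under total counts the log2 fold change was 0.09 (0.466). For Ndufb3 it was 0.143 without Ctrl 1, 0.145 without Ctrl 2, 0.132 without cKO 1 and 0.15 without cKO 3, and the call was also lost with DESeq2's size factors (0.0502) and without the expression filter (0.0568). At the other end, Ndufa10, an accessory subunit of the membrane arm, had the smallest difference of complex I, with 315, 325 and 242 CPM against 297, 289 and 296 CPM and a 95% interval of the log2 fold change from -0.29 to 0.29.

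Ndufs5, an accessory subunit, is listed at 0 in all 6 libraries. In the GENCODE M21 transcripts 32.4% of its windows are shared with BC002163, for which 302 to 483 counts are listed per library. No level of Ndufs5 can be read from these counts.

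Of the 7 assembly factors of complex I, 2 were called, both higher in the cKO-labelled libraries. Ndufaf5, a hydroxylase that modifies an arginine of Ndufs7 early in assembly, lies at chr2:140170649-140203689 of GRCm38 on the plus strand. It was at 24.5, 24.5 and 26.4 CPM in the Ctrl-labelled libraries and at 43.5, 38.2 and 39.6 CPM in the cKO-labelled ones. All libraries labelled cKO were above all labelled Ctrl, and the fitted fold between the groups was 1.61. The log2 fold change was 0.69 ± 0.08 (SE), with an adjusted p of 0.00321, and it was called in each of the 13 other fits made.

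Ndufaf6, an assembly factor of the same early stage, was at 17.8, 16.8 and 15.8 CPM in the Ctrl-labelled libraries and at 23.6, 23.0 and 21.9 CPM in the cKO-labelled ones. The groups do not overlap. Its log2 fold change was 0.44 ± 0.08 (SE), with an adjusted p of 0.0107. It was called in each fit that left out 1 library, with an adjusted p of at most 0.0485, but not under total counts (0.177). In the other direction the smallest p was that of Ndufaf3, which works in early assembly with Ndufaf4. Ndufaf3 had 13.9, 13.1 and 12.0 CPM against 11.7, 11.7 and 11.5 CPM and was not called (log2 fold change -0.16, adjusted p = 0.244), but was under total counts (-0.41, 0.0284). Ndufaf1, Ndufaf4 and Ndufaf7 were not called either, with log2 fold changes of 0.12, 0.27 and -0.01. Counted per kilobase, the assembly factors stood at 8.73 to 24.9 CPM per kb in the Ctrl-labelled libraries, and the complex I subunits at a median of 168 CPM per kb, with Ndufa4l2 lowest at 9.66. The symbol rule counts Ndufa4 and its paralogue Ndufa4l2 with complex I, although Ndufa4 is now known as a subunit of complex IV.

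**Figure D3:**
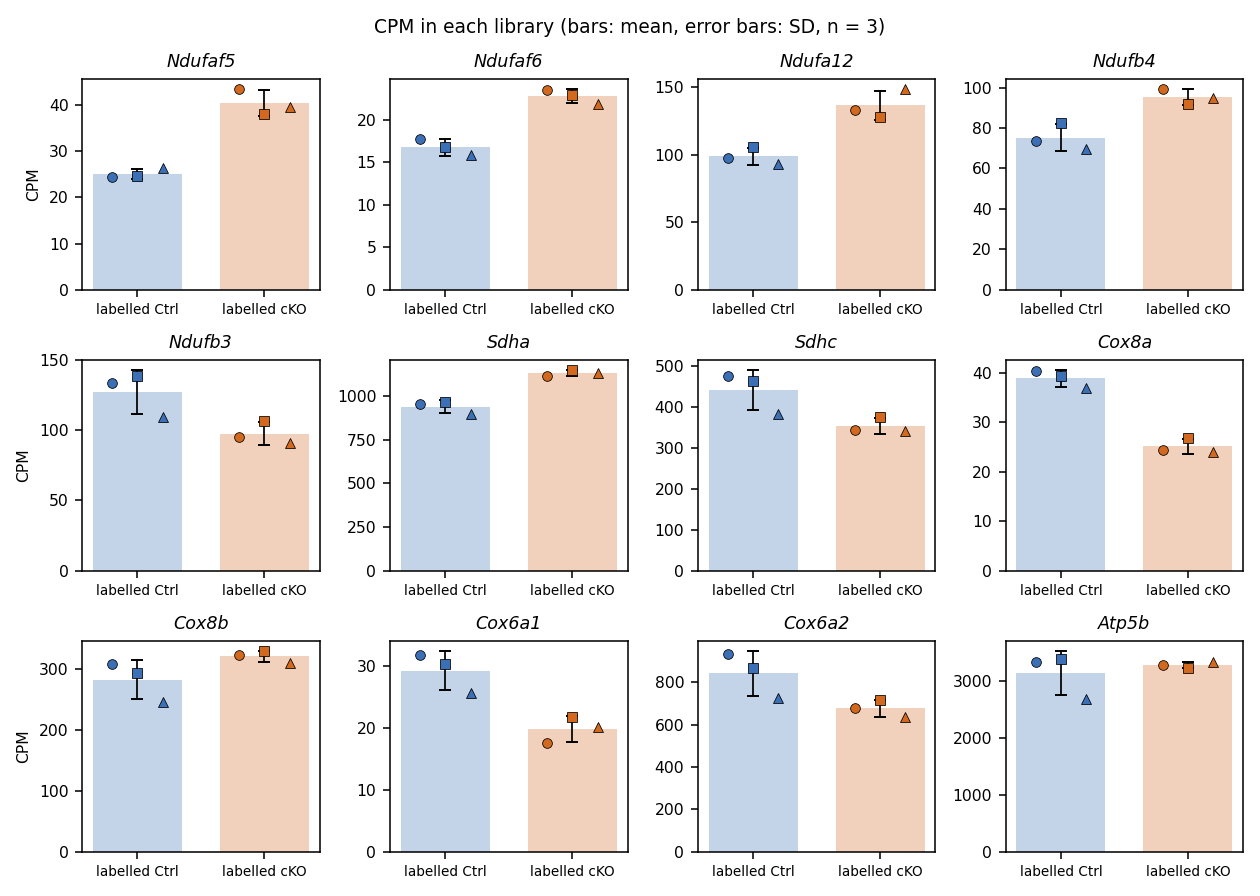
CPM (vertical axis, from 0) of 12 genes in each library, with bars for the mean of the 3 libraries labelled Ctrl or labelled cKO, error bars for the SD, and a circle, square and triangle for mouse 1, 2 and 3. Ndufaf5, Ndufaf6, Ndufa12, Ndufb4, Sdha and Cox8b lie higher in every library labelled cKO, Ndufb3, Sdhc, Cox8a, Cox6a1 and Cox6a2 lie higher in every library labelled Ctrl, and Atp5b overlaps.

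Complex II has only 4 subunits, all encoded in the nucleus, and none was called by edgeR. Sdha, the flavoprotein that oxidises succinate, was at 957, 964 and 899 CPM in the Ctrl-labelled libraries and at 1117, 1151 and 1131 CPM in the cKO-labelled ones. Sdhc, a membrane anchor that helps bind ubiquinone, was at 475, 465 and 385 CPM against 343, 376 and 343 CPM. The groups do not overlap for either gene, and the differences have opposite signs.

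The log2 fold change was 0.27 ± 0.09 (SE) for Sdha, with an adjusted p of 0.0641, and -0.32 ± 0.11 (SE) for Sdhc, with an adjusted p of 0.0705. DESeq2 called both, at adjusted p-values of 0.0015 and 0.0324, and edgeR called Sdhc without the library labelled Ctrl 3 (0.0236) and under total counts (0.0164), under which the log2 fold change of Sdha was 0.02. Sdhb, the iron-sulphur subunit, spread widely within the groups, with 544, 517 and 375 CPM against 389, 482 and 379 CPM. Its interval ran from -0.59 to 0.19. Sdhd, the other anchor, had a log2 fold change of 0.06 and an interval from -0.21 to 0.33.

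None of the 8 genes of complex III was called, and 0 had an unadjusted p under 0.05 in edgeR and 0 were called by DESeq2. Uqcrb, a small subunit near the ubiquinone site, had the smallest p, with 216, 237 and 193 CPM against 246, 240 and 248 CPM (adjusted p = 0.195). The lowest library labelled cKO was only slightly above the highest labelled Ctrl, and 29.1% of the windows of Uqcrb are shared with other genes. Uqcrc1, a core protein, had 768, 809 and 616 CPM against 786, 844 and 822 CPM, and Uqcr10, a small subunit, had 236, 247 and 193 CPM against 242, 235 and 247 CPM. Both overlap between the groups. The log2 fold changes of Uqcrb, Uqcrc1 and Uqcr10 were 0.18, 0.16 and 0.10, but -0.07, -0.09 and -0.16 under total counts. Uqcrh, the hinge protein that helps contact cytochrome c1, was closest to 0, with a log2 fold change of -0.03 and an interval from -0.30 to 0.25. Over the 8 genes the 95% intervals ran from -0.39 to 0.45, and Uqcrfs1, the Rieske iron-sulphur protein, and Uqcrc2, the other core protein, had log2 fold changes of 0.10 and 0.07.

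The 2 genes called in complex IV, Cox8a and Cox6a1, are widely expressed forms of subunits that also have a muscle form. Promoters of the Cox8 and Cox7a pairs are shown because these pairs had the largest differences in ratio. They are the 250 bases before the RefSeq start on GRCm38.p6, 5′ to 3′ on the gene's strand, with each CG dinucleotide in capitals, from chr19:7217617-7217866, minus strand (Cox8a), chr7:140900447-140900696, minus strand (Cox8b), chr9:79759854-79760103, minus strand (Cox7a2) and chr7:30183921-30184170, plus strand (Cox7a1).
Cox8a: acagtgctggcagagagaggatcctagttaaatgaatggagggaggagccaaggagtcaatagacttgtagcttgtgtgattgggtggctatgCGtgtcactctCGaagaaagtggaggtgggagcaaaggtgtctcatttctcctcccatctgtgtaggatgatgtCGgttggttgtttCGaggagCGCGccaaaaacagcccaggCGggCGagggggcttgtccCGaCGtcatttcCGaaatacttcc
Cox8b: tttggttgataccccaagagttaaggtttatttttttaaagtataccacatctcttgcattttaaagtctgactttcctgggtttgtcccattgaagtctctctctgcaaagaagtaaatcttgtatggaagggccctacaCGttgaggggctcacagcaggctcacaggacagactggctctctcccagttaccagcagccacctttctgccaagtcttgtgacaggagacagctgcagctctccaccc
Cox7a2: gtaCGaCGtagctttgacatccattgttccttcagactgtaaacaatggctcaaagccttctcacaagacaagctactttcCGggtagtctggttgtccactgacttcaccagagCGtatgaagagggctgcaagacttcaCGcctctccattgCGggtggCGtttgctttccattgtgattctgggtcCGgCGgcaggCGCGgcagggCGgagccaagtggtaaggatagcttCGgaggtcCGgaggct
Cox7a1: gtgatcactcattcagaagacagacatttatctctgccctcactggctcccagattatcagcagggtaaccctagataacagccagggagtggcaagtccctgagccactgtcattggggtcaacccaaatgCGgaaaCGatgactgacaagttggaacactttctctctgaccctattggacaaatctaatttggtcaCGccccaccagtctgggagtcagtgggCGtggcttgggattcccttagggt

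The windows of the widely expressed forms held 11 (Cox8a) and 14 (Cox7a2) CG dinucleotides, and those of the muscle forms held 1 (Cox8b) and 4 (Cox7a1). The median over all promoter windows of this length was 6. This describes the sequence, and its relation to the counts was not tested.

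Cox8a, the widely expressed form of the smallest subunit, was at 40.3, 39.5 and 37.0 CPM in the Ctrl-labelled libraries and at 24.5, 26.9 and 24.0 CPM in the cKO-labelled ones. The groups are far apart relative to their spread, with 38.9 ± 1.70 and 25.1 ± 1.52 CPM (SD, n = 3). The log2 fold change was -0.63 ± 0.08 (SE), with an adjusted p of 0.00352, and the call was made in each of the 13 other fits. Cox8b, its form in striated muscle, was at 308, 293 and 247 CPM against 323, 330 and 311 CPM and was not called (log2 fold change 0.18, adjusted p = 0.229, and -0.07 under total counts). Per kilobase of transcript, Cox8b stood at 785 CPM per kb in the Ctrl-labelled libraries and Cox8a at 70.8 CPM per kb.

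Cox6a1, the widely expressed form of subunit 6a, was at 31.7, 30.3 and 25.6 CPM in the Ctrl-labelled libraries and at 17.5, 21.7 and 20.2 CPM in the cKO-labelled ones. The groups do not overlap. The log2 fold change was -0.56 ± 0.12 (SE), with an adjusted p of 0.0159. The call was lost without the library labelled Ctrl 1 (0.0615), Ctrl 2 (0.0561), cKO 1 (0.0530) or cKO 3 (0.0542). Cox6a2, its muscle form and the most abundant gene of complex IV per kilobase (1240 CPM per kb in the Ctrl-labelled libraries), was at 935, 869 and 726 CPM against 681, 715 and 635 CPM. It too was higher in all libraries labelled Ctrl, with a log2 fold change of -0.32 ± 0.12 (SE), an adjusted p of 0.0953, and 0.0317 without the library labelled Ctrl 3. Under total counts it was called too (-0.57, 0.0195).

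Ratios of counts within a library do not depend on how libraries are scaled. Cox8b had 7.64, 7.43 and 6.67 counts per count of Cox8a in the Ctrl-labelled libraries and 13.2, 12.3 and 12.9 in the cKO-labelled ones. The ratio was 1.77-fold higher in the cKO-labelled libraries, and the groups are separate. The ratio of Cox6a2 to Cox6a1 was 29.5, 28.7 and 28.4 against 38.9, 33.0 and 31.5. That of Cox7a1 to Cox7a2, the muscle and widely expressed forms of subunit 7a, was 1.53, 1.42 and 1.14 against 1.63, 1.67 and 1.92. In the 3 pairs of a muscle with a widely expressed form, every library labelled cKO had a higher ratio than every library labelled Ctrl. The differences of the mean log2 ratio were 0.82, 0.25 and 0.36.

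Each gave p = 0.1 in an exact two-sided permutation test, the smallest that 3 against 3 libraries allow, and 0.16 after adjustment over the 8 pairs compared, so this test could not pass a threshold of 0.05 with 3 libraries a group. Of the other 5 pairs, Ndufa4l2 to Ndufa4 (0.0233, 0.0253 and 0.0295 against 0.0202, 0.0228 and 0.0227) and Atp5g1 to Atp5g3 (0.630, 0.626 and 0.614 against 0.700, 0.632 and 0.701) were also separate, with differences of -0.25 and 0.12. The pair of Cox4i2, a form induced by low oxygen and made mainly in lung, to Cox4i1 overlapped between the groups. So did the ratios of Atp5g1 and of Atp5g3, both genes of the rotor ring, to Atp5g2. Of their windows 59.6% (Atp5g1) and 100% (Atp5g2) are shared with other genes.

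**Figure D4:**
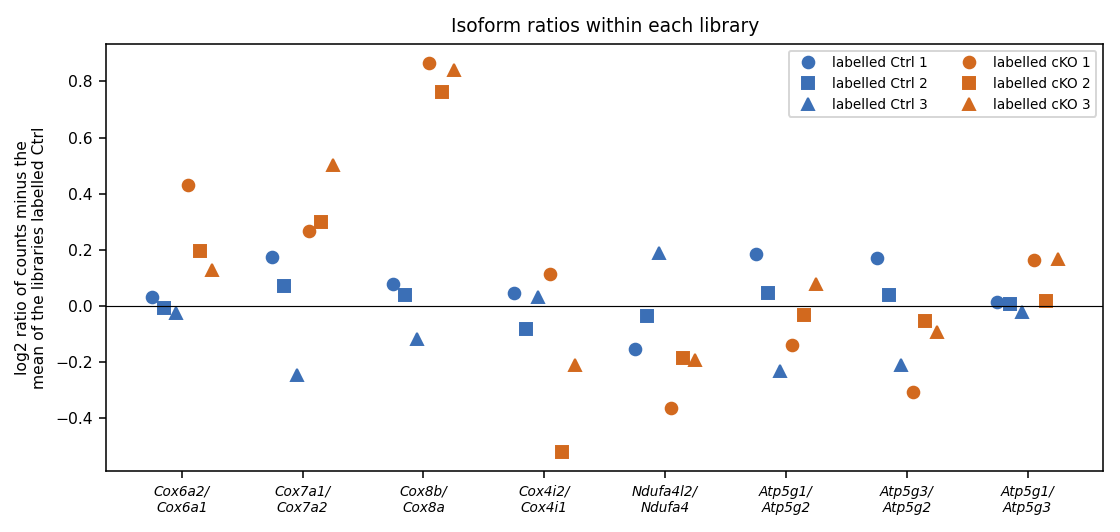
Log2 ratio of the counts of paired genes in each library, minus the mean of the 3 libraries labelled Ctrl (vertical axis), with colour for the labelled group and shape for the mouse number. For Cox8b to Cox8a the cKO-labelled libraries lie about 0.82 above, the largest difference of the 8 pairs.

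The rest of complex IV overlapped between the groups. Cox7a2 (126, 135 and 109 CPM against 100, 111 and 106 CPM) had a log2 fold change of -0.22 and an adjusted p of 0.139, but was called without the library labelled Ctrl 3 (0.0467) and under total counts (-0.47, 0.0236). Cox7a1 spread widely within the groups, with 192, 192 and 125 CPM against 163, 185 and 202 CPM. Cox6c, a small subunit, was closest to 0, with 368, 369 and 293 CPM against 326, 354 and 338 CPM. Cox4i1, Cox5a, Cox5b, Cox6b1, Cox7b and Cox7c, other abundant subunits, had log2 fold changes of -0.02, 0.11, -0.05, -0.09, -0.05 and 0.15. Cox7a2l, which links complexes III and IV, stood at 0.03. Cox6b2, Cox7b2 and Cox8c are known from testis. Cox6b2 was at 0.383 to 0.627 CPM, and Cox8c and Cox7b2 are listed at 0. If their reads were counted, this allows at most 0.0682 to 0.0847 CPM per library (3 counts, counting error only). Ndufs5 and the haemoglobin genes are also listed at 0 in all 6 libraries, so a 0 here may not be a level.

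None of the 17 genes of complex V was called, and edgeR gave 0 of them an unadjusted p under 0.05 and DESeq2 called 0. Under total counts Atp5k and Atp5l were called higher in the Ctrl-labelled libraries, and so were Atp5l and Atp5sl without the library labelled Ctrl 3. The catalytic subunit Atp5b, the most abundant gene of the set per kilobase (1641 CPM per kb in the Ctrl-labelled libraries), was at 3344, 3396 and 2690 CPM in the Ctrl-labelled libraries and at 3281, 3231 and 3337 CPM in the cKO-labelled ones. The groups overlap, and the interval of its log2 fold change ran from -0.24 to 0.36. Atp5l, subunit g of the membrane part, had the smallest p, with 331, 327 and 262 CPM against 256, 265 and 252 CPM. Its adjusted p was 0.133, 0.0262 without the library labelled Ctrl 3 and 0.0215 under total counts (log2 fold change -0.51, against -0.25). Of its windows, 76.0% are shared with other genes, pseudogenes among them.

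Atp5e and Atp5c1, the epsilon and gamma subunits of the rotor stalk, were higher in every library labelled cKO but were not called. Atp5e had 295, 298 and 252 CPM against 313, 314 and 342 CPM (adjusted p = 0.176), and Atp5c1 had 614, 640 and 552 CPM against 657, 695 and 705 CPM (0.189). Under total counts both had negative log2 fold changes, of -0.06 and -0.07. Atp5d, the delta subunit of the same stalk, was closest to 0, with 417, 401 and 316 CPM against 376, 365 and 390 CPM. Over the 17 genes the log2 fold changes ran from -0.25 to 0.20. They include Atp5s and Atp5sl, which the symbol rule places here although they are known as a coupling factor and an assembly protein.

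Counting groups that do not overlap, 24 of the 89 genes had all libraries labelled cKO above all labelled Ctrl and 6 the reverse. Over all genes tested these shares were 22% and 21.9%. The direction turned with the scaling: under total counts 2 of the 89 were higher in all cKO-labelled libraries and 18 in all Ctrl-labelled ones, against 8.29% and 42.8% of all genes tested. Under TMM the genes fell as follows. Of the 24 genes, 15 were in complex I by the symbol rule, Ndufa4 among them. Complex I has 37 of the 89 genes. Of the 6, 3 were in complex IV (Cox8a, Cox6a1 and Cox6a2), which has 16 of the 89.

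Genes of 4 other mitochondrial lists were read against the same background of 12.6% called higher in the cKO-labelled libraries and 11.8% in the Ctrl-labelled ones. Of 10 genes listed as markers of mitochondrial mass, 5 were called, all higher in the cKO-labelled libraries. Whether their transcripts follow the amount of mitochondria in this tissue was not tested. Vdac3 and Vdac1, channels of the outer membrane, led. Vdac3 was at 227, 241 and 236 CPM in the Ctrl-labelled libraries and at 357, 339 and 384 CPM in the cKO-labelled ones, with a log2 fold change of 0.62 ± 0.08 (SE) and an adjusted p of 0.00458, and it was called in each of the 13 other fits. Vdac1 was at 1160, 1287 and 1169 CPM against 1737, 1709 and 1786 CPM, with a log2 fold change of 0.53 ± 0.10 (SE) and an adjusted p of 0.0103, which was 0.0533 without the library labelled cKO 3 and 0.0574 under total counts. The other 3 called were Chchd3, a protein that shapes the cristae (0.49), Vdac2 (0.34) and Tfam, which packages mitochondrial DNA (0.26). The call was kept in 4, 1 and 0 of the 6 fits that left out 1 library, and all 3 were lost under total counts. Citrate synthase (Cs) was not called, with 949, 990 and 823 CPM against 1124, 1025 and 1082 CPM (adjusted p = 0.161). Of the other 4 not called, Tomm20, a receptor of the outer membrane import machinery, was higher in every Ctrl-labelled library (99.3, 105 and 92.9 CPM against 82.3, 90 and 80.4 CPM, adjusted p = 0.079), and Hspd1, Immt and Timm44 had log2 fold changes of -0.08, 0.12 and 0.10.

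Of 38 assembly factors outside the symbol rule, 7 were called higher in the cKO-labelled libraries and 1 higher in the Ctrl-labelled ones. Coa7, an assembly factor of complex IV, had 13.2, 16.4 and 13.3 CPM against 26.4, 21.2 and 24.9 CPM (log2 fold change 0.76, adjusted p = 0.00783). Sdhaf3, which helps mature complex II, had 5.54, 6.27 and 6.73 CPM against 9.45, 10.3 and 9.66 CPM (0.66, adjusted p = 0.00800). Both were called in each of the 13 other fits. Coa5, Coa6, Uqcc3, Acad9 and Tmem126b were the other 5, with log2 fold changes from 0.28 to 0.42. They were called in 2, 0, 1, 3 and 5 of the 6 fits that left out 1 library, and in none under total counts. Cox19, a copper-handling protein of complex IV assembly, was higher in the Ctrl-labelled libraries (-0.58, adjusted p = 0.0165, called in 2 of those 6 fits). Sco2 is listed at 0 in all libraries, from which no level is read, and Pet117 had 1 count over the 6 libraries.

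Of 19 genes of electron carriers and coenzyme Q synthesis, 1 was called higher in the cKO-labelled libraries and 3 higher in the Ctrl-labelled ones. Gpd2, the glycerol-3-phosphate dehydrogenase of the inner membrane that feeds electrons to ubiquinone, had 51.4, 75.1 and 122 CPM against 344, 230 and 302 CPM, a 3.53-fold difference (adjusted p = 0.0086). It was called in each of the 13 other fits and was the only gene of these lists past the 2-fold rule. Adck3, an atypical kinase of coenzyme Q synthesis, had 2099, 2055 and 1556 CPM against 867, 1234 and 814 CPM (log2 fold change -0.97, adjusted p = 0.0147, called in 2 of the 6 fits that left out 1 library). Coq10a (-0.44) and Coq4 (-0.33) were each called in 1 of those fits. Cycs, the cytochrome c of somatic cells, stood at 0.02. Among 3 other ATP synthase genes, Atpif1, the inhibitor of ATP hydrolysis, was higher in the Ctrl-labelled libraries, with 16.7, 17.5 and 16.7 CPM against 14.1, 14.0 and 13.3 CPM (-0.30, adjusted p = 0.0322, called in 1 of the 6). Over these 4 lists, 13 genes were called higher in the cKO-labelled libraries and 5 higher in the Ctrl-labelled ones. Without the library labelled Ctrl 1, Ctrl 2, Ctrl 3, cKO 1, cKO 2 or cKO 3 these counts were 7, 8, 9, 7, 11 and 4, and 0, 0, 8, 0, 6 and 0. In the same order, 5.33%, 6.06%, 11.8%, 6.2%, 12.3% and 5.34% of all genes tested were called higher in the cKO-labelled libraries. Those called higher in the Ctrl-labelled ones were 5.63%, 6.57%, 10.6%, 6.18%, 12.5% and 5.46%.

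**Figure D5:**
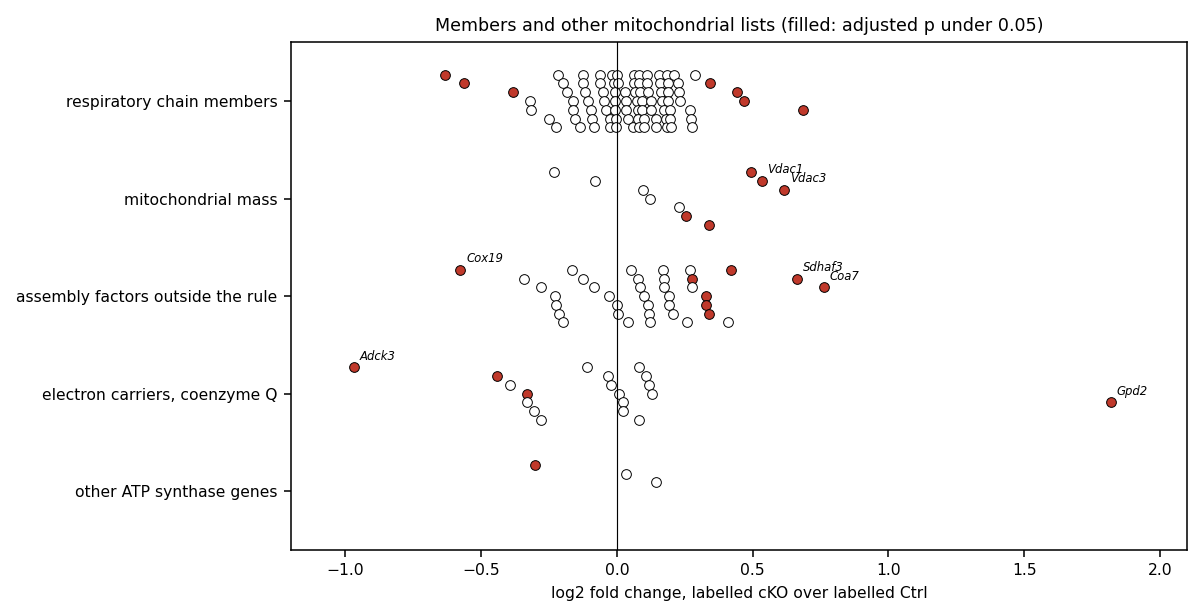
Log2 fold change (labelled cKO over labelled Ctrl, horizontal axis) of the 89 chain genes and of the genes of the 4 other mitochondrial lists, 1 point per gene, spread vertically only for legibility. Filled points have an adjusted p under 0.05, and Gpd2 at 1.82 lies farthest from 0.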

How the data were processed

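Bulk RNA-Seq counts of 6 GP muscle libraries were analysed. The authors deposited 1 table of raw counts per library. The submitters' processing notes name FastQC 0.11.8, Trimmomatic 0.39, HISAT2 2.1.0, featureCounts 1.6.2 and the build mm10. The annotation and strand setting are not given in the sources used here. Groups follow the labels. The tests used edgeR 4.0.16 under R 4.3.3 (TMM, filterByExpr, quasi-likelihood test, Benjamini-Hochberg adjustment over 14180 genes, called under 0.05). DESeq2 1.42.0 was an alternative, as were other scalings, filters, a block for mouse number, a test against a 1.2-fold difference and each library left out. Standard errors come from the F statistic. The steps were tested on simulated counts. CPM per kb uses the length of the principal GENCODE M21 transcript (GRCm38). Shared windows are 75-base stretches of it also found in other genes' transcripts. RefSeq promoter windows were matched by symbol for 73 of the 92 genes. Isoform ratios were compared by exact permutation tests. The members and lists were chosen with earlier results of these data known. Named are, per complex, the 3 genes with the smallest p, those with the largest and smallest difference, the isoform pairs, genes at 0 and the 2 leading genes of each other list. Other genes named, such as Ndufv2, Ndufs7, Ndufaf2, Atp5b and the other called genes of the lists, were chosen after their values were seen. Between replicates, the chi-square per degree of freedom was 31.3 to 107, so no library repeats another. Each library is 1 mouse. 1 gene of the set entered every fit and count but is not reported here by itself.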

Additional observations from a re-analysis of the deposited data

How the results depend on the processing

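The counts of chain genes called, 4 higher in the libraries labelled cKO and 3 higher in those labelled Ctrl, were 1 and 11 under total counts, 7 and 4 with DESeq2, 1 and 1 against a 1.2-fold difference, and 0 and 0 with the 2-fold rule. The shares of all genes tested were 4.75% and 28.7% under total counts and 14.9% and 13.2% with DESeq2. They were 4.77% and 5.24% against a 1.2-fold difference and 2.13% and 3.92% with the 2-fold rule. With 1 library left out the counts of chain genes ranged from 2 to 4 and from 1 to 9. The shares of all genes then ranged from 5.33% to 12.3% and from 5.46% to 12.5%. The counts over the 4 other lists, 13 and 5, were 4 and 19 under total counts, 5 and 1 against a 1.2-fold difference and 1 and 0 with the 2-fold rule, the second was 3 without an expression filter, and with 1 library left out they ranged from 4 to 11 and from 0 to 8. The same shares of all genes stand beside these counts, and without the filter 8.04% were called higher in the libraries labelled Ctrl. Total counts moved the medians of all chain genes, complex I, its assembly factors, and complexes II, III, IV and V to -0.19, -0.16, -0.13, -0.32, -0.17, -0.29 and -0.22. No isoform difference moved by more than the spread between replicates when a library was left out or 0.5 counts were added. Deviations of libraries with the same mouse number correlated by 0.08, -0.21 and -0.002, so the numbers do not pair the mice. With mouse number as a replicate block, 2 and 2 chain genes and 5 and 2 genes of the other lists were called. The shares of all genes tested were 6.54% and 6.85% in that fit. The paired difference of Cox8b to Cox8a stayed 0.82. The spread between 3 mice a group limits precision. The 95% interval stayed within a 1.5-fold difference in 79 of the 89 chain genes. This count depends on the size of each difference as well as on that spread.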

Other observations

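Of 78 promoter windows of 250 bases before the RefSeq starts of the chain genes, 8 (10.3%) held the NRF1 core CGCATGCG, which reads the same on both strands, against 1.55% of all 32851 windows. NRF1 is a factor known to bind genes of the respiratory chain. The genes were Cox6a1, Ndufa8, Ndufa11, Ndufaf4, Atp5g2, Atp5j, Atp5k and Atp5l, of which Cox6a1 was called. The half-site AAGGTCA bound by oestrogen-related receptors, searched on both strands, was in 6.41% of the chain windows and in 4.08% of all. The MEF2 motif was in 0 of the 78 and in 2.92% of all. No match overlapped a match to another motif. The windows of the chain genes hold more CG dinucleotides than all windows (median 14 against 6), whose part in these shares was not tested.

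Ratios of genes within a complex, chosen after the values were seen and so given with no test, differed between the labelled groups. There were 2.01, 2.07 and 2.34 counts of Sdha per count of Sdhc in the libraries labelled Ctrl and 3.26, 3.06 and 3.30 in those labelled cKO. Ndufa12 had 0.728, 0.763 and 0.854 counts per count of Ndufb3 in the libraries labelled Ctrl and 1.4, 1.2 and 1.64 in those labelled cKO.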
